A study of Bos taurus with 12 samples.

Results

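The miRNAs miR-143, miR-145, miR-199a, miR-199b, miR-199c, miR-214 and miR-21 were followed through the induction of bovine intramuscular preadipocytes. Members were taken by name: every listed miRNA carrying one of these numbers entered, whatever its arm and species prefix, and the entry named miR-145a was counted with miR-145. This gave 16 of the 1330 names, 9 with the bovine prefix and 7 with the prefix of another species whose entry the bovine reads matched. They cover 13 pairs of number and arm (5p or 3p, the side of the hairpin from which the mature miRNA is cut). The study took preadipocytes out of newborn Qinchuan calves (longissimus dorsi) and sampled them before adipogenic induction (0 d) and on days 3, 6 and 9, with 3 libraries per day and 12 in all. Small RNAs and mRNAs were sequenced from the same days. All cells grew in DMEM-F12 with fetal bovine serum, and induction was started at near confluence with dexamethasone (DEX), IBMX and insulin and carried on with insulin alone. The labels and the study's methods give different doses of dexamethasone and insulin, and doses are therefore not given. The libraries of a day are numbered as replicates and described as biological replicates, but separate animals or cultures are not named, so p-values measure the spread between these libraries.

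A miRNA pairs with mRNAs mainly through its seed, bases 2 to 8 from the 5′ end, and lowers their stability or translation. miR-143 and miR-145 are made from neighbouring hairpins and are known as markers of smooth muscle and other mesenchymal cells, where serum response factor (SRF) and its partner myocardin drive them. miR-199a and miR-214 are typical of fibroblasts and connective tissue and lie antisense within dynamin genes, and miR-21 is abundant in most cultured cells and lies at the end of VMP1.

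The mature sequences are shown because the members differ in how far their seeds, and hence the mRNAs they can pair with, overlap. Each was copied from the deposited table in DNA letters, with the seed in capitals. In the names, L and R give the bases added (+) or missing (-) at the 5′ and 3′ end against the miRBase entry. The first 3 sequences share a seed, the next 2 share another, and each of the other 11 has a seed of its own among the members.
bta-miR-199a-5p_R+1: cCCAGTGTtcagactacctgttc
bta-miR-199b: cCCAGTGTttagactatctgttc
sha-mir-199a-p5: cCCAGTGTtcagactacctgtcc
bta-miR-199a-3p_R-1: aCAGTAGTctgcacattggtt
bta-miR-199c_L-1R+3: aCAGTAGTctgcacattggttt
bta-miR-143_R-1: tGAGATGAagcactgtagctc
chi-miR-143-5p: gGTGCAGTgctgcatctctgg
bta-miR-145: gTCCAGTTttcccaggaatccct
mmu-miR-145a-3p_L+2R-2: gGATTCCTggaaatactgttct
bta-miR-214: aCAGCAGGcacagacaggcagt
bta-miR-21-5p_R-1: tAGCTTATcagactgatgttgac
bta-miR-21-3p_L+1R-1: cAACAGCAgtcgatgggctgtc
chi-miR-214-5p: tGCCTGTCtacacttgctgtgc
mdo-miR-21-5p_L+2R+1: aATAGCTTatcagactgatgttgac
mdo-miR-145-5p_L+2: gTGTCCAGttttcccaggaatccct
ppy-miR-199b-3p_L+2R-1: cTACAGTAttctgcacattggtt

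Counted from 1 at the 5′ end, miR-199b-5p differed from miR-199a-5p by C10T and C17T, both outside the seed. The entry with the prefix sha differed from miR-199a-5p by T22C alone. The sequence listed for miR-199c held all 21 bases of miR-199a-3p and 1 base more at the 3′ end, so reads of these names cannot be told apart by sequence except at that end, and the level of miR-199c is uncertain for this reason. A shifted 5′ end moved the seed away from that of the miRBase entry in 6 members, among them miR-21-3p, miR-145-3p and miR-199c. Reads that fit several loci or names were split: of the values of names with 2 loci, 42.1% were whole numbers (within 0.011), and 88.4% after multiplying by 2, against 88.0% for names with 1 locus. For names with 3 loci, only 49 values, 16.3% were whole and 51.0% after multiplying by 3. The listed level of miR-199a-5p (2 loci) may therefore be a share per locus, and for miR-199a-3p (3 loci) this is not shown, whereas fold changes of the same name between days are not touched by a constant split.

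The members with a bovine locus fell on 4 chromosomes. The table gave positions on RefSeq bovine sequences whose build is not stated for it, and chromosome numbers were taken from the RefSeq annotation by gene name. The hairpins of miR-143 (chr7:60812121-60812221) and miR-145 (chr7:60813550-60813637) lay on the same strand with 1328 bases between them. Those of miR-214 (chr16:39619547-39619658) and of the first copy of miR-199a (chr16:39625338-39625447) lay 5679 bases apart on the opposite strand to miR-143. A second copy of miR-199a was on chr7 (15283405 to 15283487), miR-199b on chr11 (98855737 to 98855836), and miR-21 and miR-199c on chr19. In that annotation (ARS-UCD2.0, used for chromosome numbers, names and neighbours only), the first copy of miR-199a and miR-214 overlap DNM3, the second copy DNM2, miR-199b DNM1 and miR-199c NUP88. miR-143 and miR-145 overlap a long noncoding RNA and no protein-coding gene, and VMP1 is the nearest coding gene to miR-21.

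The small RNA libraries held between 1438548 reads (replicate 3 of 0 d) and 4673382 reads (replicate 2 of 6 d) assigned to miRNAs. Some members were among the most abundant names. Ranks were taken from the mean normalized signal, the authors' read value divided by 1 factor per library. Of the 1330 names miR-21-5p ranked 6th, miR-214-3p 11th, miR-145-5p 12th, miR-199a-5p 14th and miR-143-3p 31st. The other members ranked from 62nd to 1278th. The listed level of miR-199a-5p may be a share per locus. If so, its rank is too low, and its order against miR-21-5p, miR-214-3p and miR-145-5p is not settled. Together the members took 7.06 ± 2.33% of the miRNA reads at 0 d (SD, n = 3), 8.42 ± 1.39% at 3 d, 13.2 ± 1.54% at 6 d and 13.2 ± 0.155% at 9 d. By library the share was 7.24, 9.29 and 4.65% before induction. It was 9.08, 9.36 and 6.82% on day 3, then 14.4, 13.8 and 11.5%, and last 13.3, 13.1 and 13.3%. Every library of 6 and 9 d was above every library of 0 and 3 d.

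**Figure D1:**
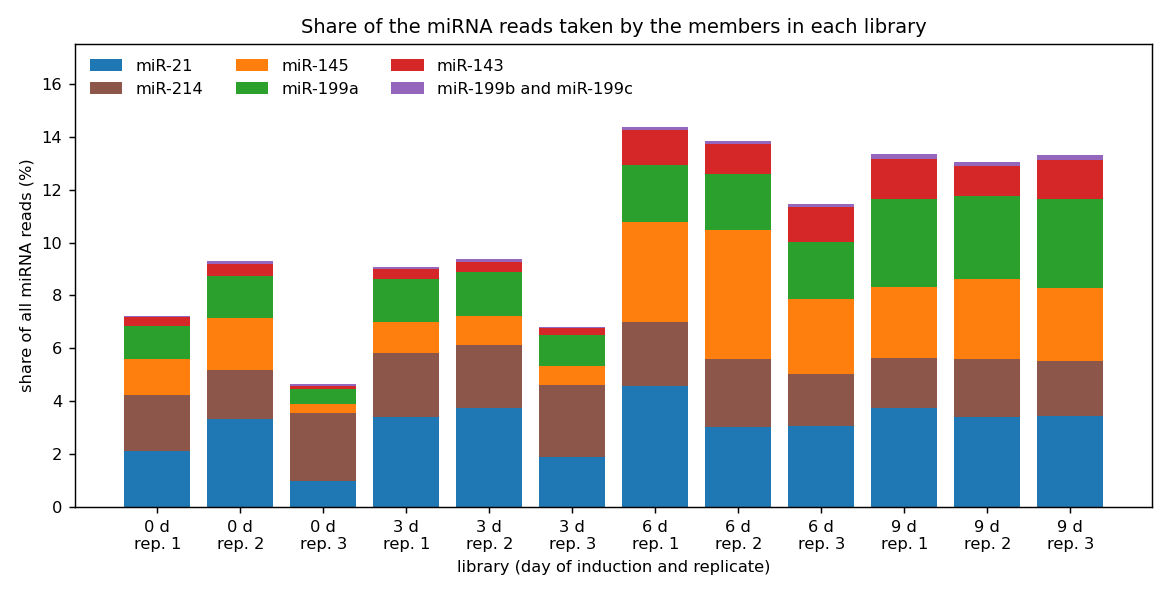
Share of all miRNA reads (%, y axis) taken by the members in each of the 12 libraries (x axis), stacked by miRNA number. The bars of 0 and 3 d reach at most 9.36%, those of 6 and 9 d at least 11.5%, and miR-145, miR-21, miR-199a and miR-143 are all larger on average at 6 and 9 d than at 0 and 3 d, while miR-214 keeps a similar height.

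Replicate 3 of 0 d stood apart from the other libraries of that day. Across miRNAs its correlation with them was 0.907 and 0.897, against 0.956 between the other 2, and at the other days the lowest such value was 0.940. It was also the smallest library. Its normalized signals of miR-145, miR-199a-5p and miR-21-5p were the lowest of the 12 libraries, and that of miR-214-3p was the highest. Its normalized signals summed to 3157570, against 2542451 and 2455017 in the other libraries of 0 d. As a share of reads, miR-214 was higher in replicate 3 of 3 d (2.69%) than in replicate 3 of 0 d (2.57%). Replicate 3 of 3 d differed from its day in the same directions, by less. Calls lost or gained without either of these libraries are given with and without it, an alternative chosen after the values had been seen. For calls that stayed, most fold changes are given with these libraries only. What set the libraries apart was not tested.

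The labels name the cells intramuscular adipocytes, and the mRNA levels (FPKM, fragments per kilobase, scaled for depth) bear on that name. All 8 preadipocyte or fibroblast markers were detected in every library, led by COL3A1, with summed levels from 127051 to 239251 FPKM. The 9 adipocyte markers summed to at most 62.25 FPKM in the libraries of 0 d, and the highest sum was 186 (3 d), with 84.3 to 105 in those of 6 and 9 d. PLIN1, whose row is joined with PEX11A, was the most abundant of them over all libraries, while FABP4 exceeded it at 3 d (means 91.1 and 47.0 FPKM). Among the secreted ones ADIPOQ reached at most 1.64 FPKM, while LEP averaged 2.34 FPKM before induction, fell at 3 d (0.07 FPKM, log2 fold change -4.06, limma adjusted p = 1.49e-05) and was higher at 9 d (20.5 FPKM, 3.06, adjusted p = 0.000262). FABP4 rose at 3 d (4.75, adjusted p = 7.43e-10) and was down to 9.07 FPKM at 9 d. CD36 was higher at 9 d than at 0 d (4.33, adjusted p = 1.88e-08). ADIPOQ was higher than at 0 d on all 3 days (2.68, 2.22 and 2.34, adjusted p = 0.00655, 0.0258 and 0.0196), LPL at 3 d (adjusted p = 0.000117) and CIDEC at 6 and 9 d (1.14 and 1.43). PPARG (-0.53 at 9 d vs. 0 d) stayed within the fold limit. Markers of smooth muscle or pericytes, 6 genes led by ACTA2, had sums of 1892, 1922 and 2055 FPKM before induction, against 104, 113 and 101 in the libraries of 3 d. At 6 d the sums were 2020, 2165 and 2154, and at 9 d 786, 736 and 824. MYOCD, the gene of myocardin, stayed at or below 0.26 FPKM and RGS5 was at 0 in 7 libraries. Of the 9 skeletal muscle markers, led by DES, PAX7 was not listed and the other 8 reached sums from 826 to 941 FPKM at 0 d and from 271 to 421 afterwards. Endothelial markers summed to at most 2.64 FPKM, and the 5 blood and immune markers to at most 3.69. PTPRC and HBB were at 0 in all 12 libraries, CD68 reached 0.50 FPKM, and CD14 (1.71, limma adjusted p = 2.67e-05) and CSF1R (1.23, adjusted p = 0.00127) rose at 3 d vs. 0 d, to means of 2.40 and 0.87 FPKM. CD14 was also higher at 9 d vs. 0 d (1.59, limma adjusted p = 0.000108, mean 2.22 FPKM). The mRNA profile thus held preadipocyte or fibroblast transcripts, which this list does not separate, with smooth and skeletal muscle transcripts. Adipocyte transcripts summed to less than each of these, except at 3 d. There their sums (180 to 186 FPKM) were above those of the smooth muscle or pericyte markers (101 to 113). All calls of adipocyte markers against 0 d were higher except that of LEP at 3 d.

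miR-143-3p, the main product of its hairpin, gave normalized signals of 8267, 11435 and 4609 at 0 d, 8883, 9668 and 6253 at 3 d, 33478, 28339 and 33654 at 6 d, then 43919, 36933 and 44122 at 9 d. miR-145-5p gave 34142, 48627 and 10602 at 0 d, 29200, 27329 and 19320 at 3 d, 97406, 123824 and 71811 at 6 d, then 78158, 97876 and 82136 at 9 d. For both, the libraries of 0 and 3 d overlapped, and all libraries of 6 and 9 d lay above them. The other arms showed the same step at far lower levels. miR-143-5p gave 139, 133 and 140 at 0 d, 110, 86.0 and 146 at 3 d, 433, 368 and 470 at 6 d, then 404, 431 and 529 at 9 d. miR-145-3p gave 148, 144.61 and 30.7 at 0 d, 87.1, 110 and 60.1 at 3 d, 405, 438 and 382 at 6 d, then 295, 340 and 271 at 9 d. Replicate 3 of 0 d was low for miR-145 on both arms but within its group for miR-143-5p, whose 0 d values were the closest together.

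**Figure D2:**
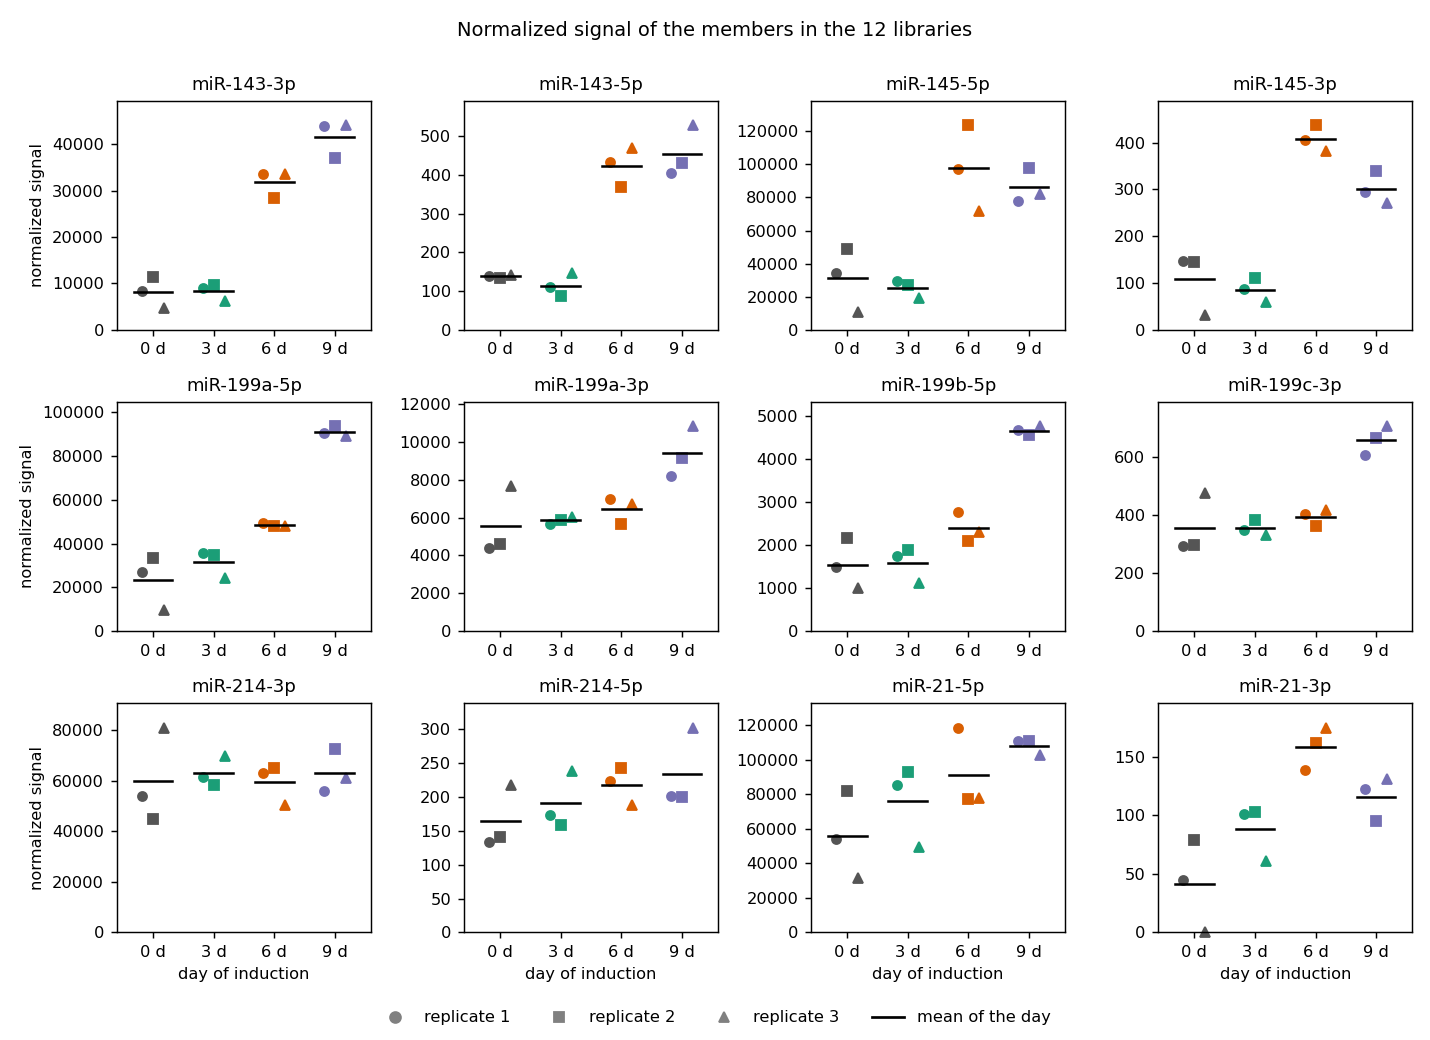
Normalized signal (y axis, starting at 0 and scaled per panel) of 12 members by day of induction (x axis); symbols mark the 3 replicates of a day and black lines the mean of the day. miR-143 and miR-145 step up between 3 and 6 d, miR-199a-5p and miR-199b-5p reach their highest values at 9 d (89174 to 93530 and 4551 to 4758), and miR-214-3p overlaps between all days.

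The mean of miR-199a-5p was higher on each later day, and its values lay close together within 6 d and within 9 d, though not between these days. Its signals were 26937, 33502 and 9456 at 0 d, 35726, 34847 and 24400 at 3 d, 49450, 48186 and 48203 at 6 d, then 90688, 93530 and 89174 at 9 d. miR-199b-5p, with the same seed, gave 1493, 2157 and 990 at 0 d, 1737, 1894 and 1107 at 3 d, 2769, 2094 and 2293 at 6 d, then 4676, 4551 and 4758 at 9 d. In both, the 9 d libraries lay above all others. The 3p arms moved less: miR-199a-3p gave 4416, 4627 and 7672 at 0 d, 5668, 5904 and 6053 at 3 d, 7016, 5681 and 6723 at 6 d, then 8213, 9182 and 10831 at 9 d. miR-199c, read with the miR-199a-3p seed, gave 291, 296 and 475 at 0 d, 346, 383 and 329 at 3 d, 402, 361 and 417 at 6 d, then 605, 663 and 704 at 9 d. For these 3p entries replicate 3 of 0 d was the high library of its day, whereas for the 5p entries it was the low one.

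miR-214-3p, cut from a hairpin next to miR-199a, was not called in any comparison. It gave 53810, 44841 and 80878 at 0 d, 61432, 58312 and 69670 at 3 d, 62911, 65073 and 50453 at 6 d, then 55737, 72579 and 61201 at 9 d. Libraries of all 4 days overlapped, and the means, 59843 ± 18761 at 0 d (SD, n = 3) and 63172 ± 8592 at 9 d, differed by less than either SD. miR-214-5p gave 134, 141 and 217 at 0 d, 174, 159 and 239 at 3 d, 223, 243 and 188 at 6 d, then 202, 200 and 302 at 9 d, again with overlap between the days.

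miR-21-5p gave normalized signals of 54234, 82065 and 31614 at 0 d, 85623, 92846 and 49541 at 3 d, 118598, 77102 and 77951 at 6 d, then 110812, 110901 and 103036 at 9 d. By this signal the 9 d libraries lay above those of 0 and 3 d, while those of 3 d overlapped with 0 d and those of 6 d with all other days. The separation from 3 d depended on the scaling. As a share of all miRNA reads, miR-21 took 3.40, 3.76 and 1.91% at 3 d and 3.76, 3.39 and 3.46% at 9 d, which overlap. miR-21-3p gave 44.8, 78.5 and 0 at 0 d, 101, 102 and 61.0 at 3 d, 139, 161 and 175 at 6 d, then 122, 94.95 and 131 at 9 d. The 0 was in replicate 3 of 0 d, where 3 reads, the most that a count of 0 allows, would correspond to a signal of 6.58. This limit covers counting error only.

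The 4 remaining members were scarce. The sha entry of miR-199a-5p had its highest values at 9 d (54.3, 68.5 and 45.1) and was at 0 in 2 libraries of the earlier days. The mdo entry of miR-21-5p, which begins 2 bases further upstream, ranged from 17.6 to 125. The ppy entry of miR-199b-3p held 10 reads, all in 2 libraries of 3 d, and the mdo entry of miR-145-5p held 6 reads, all in 1 library of 6 d. The last had fewer than the 10 reads required for testing, which left 15 of the 16 members among the 1081 names tested. A member was called where edgeR gave an absolute log2 fold change over 1 and an adjusted p under 0.05, with Benjamini-Hochberg adjustment over all tested names. In these whole-culture libraries, fewer cells that make a miRNA and less miRNA per cell cannot be told apart.

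At 3 d vs. 0 d no member was called among the 15 tested by edgeR, where 6.38% of all tested miRNAs were. None reached an unadjusted p under 0.05 either, and DESeq2 and limma on the normalized signal also called 0. The median log2 fold change was 0.23 over the members and 0.03 over all tested names. The values for miR-143-3p (0.14 ± 0.29, SE) and miR-145-5p (-0.21 ± 0.41) were within their standard errors of 0. Without replicate 3 of 0 d these values were -0.17 and -0.62 (edgeR adjusted p = 0.680 and 0.108). miR-145-3p then went from -0.26 to -0.68 (adjusted p = 0.0786), and still no member was called.

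At 6 d vs. 0 d, 5 members were called, all higher, where 11.3% of all tested miRNAs were called and 7.12% called higher. They were miR-143 and miR-145 on both arms and miR-199a-5p. The log2 fold change was 2.11 ± 0.30 for miR-143-3p (SE; edgeR adjusted p = 0.000224), 1.79 ± 0.23 for miR-143-5p (adjusted p = 0.000105), 1.78 ± 0.42 for miR-145-5p (adjusted p = 0.0103) and 2.03 ± 0.42 for miR-145-3p (adjusted p = 0.00457). In all 4, each library of 6 d lay above each of 0 d. With only the 6 libraries compared, the calls of miR-145-5p (1.78, adjusted p = 0.109) and miR-145-3p (2.04, adjusted p = 0.0713) were lost. miR-199a-5p rose by 1.19 ± 0.35 (adjusted p = 0.0320), a call that was lost when any library of 6 d or replicate 1 of 0 d was left out (log2 fold changes of 1.16 to 1.34, adjusted p from 0.0510 to 0.0915) and, by falling under the fold limit, without replicate 3 of 0 d (0.82). It was also lost with only the 6 libraries compared (adjusted p = 0.171) and with total reads as library size (1.06, adjusted p = 0.0756). miR-21-3p missed the call (3.99-fold, adjusted p = 0.0504) and was called by DESeq2 (1.93, adjusted p = 0.0217), with the replicate block (2.15, adjusted p = 0.0242), with no filter (adjusted p = 0.00552), without replicate 2 of 0 d (2.86) and without replicate 3 of 0 d (1.49). Without replicate 2 of 0 d, miR-21-5p (1.28) and miR-199b-5p (1.13) were called too. The median was 0.87 over the members and 0.25 over all tested names.

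**Figure D3:**
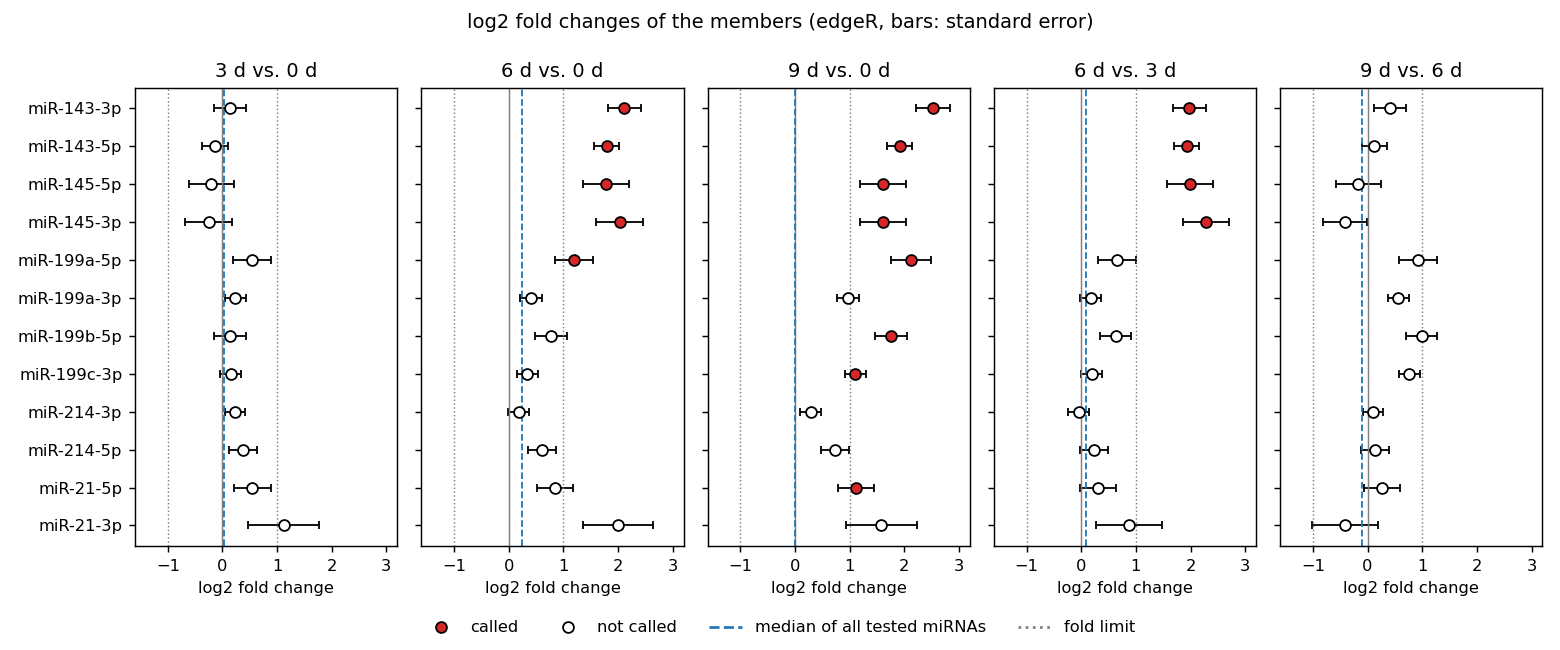
log2 fold changes (x axis, edgeR; bars are standard errors) of 12 members (y axis) in the 5 comparisons; filled points were called, the dashed line is the median of all tested miRNAs and dotted lines mark the fold limit. The 4 entries of miR-143 and miR-145 lie between 1.61 and 2.53 in the comparisons of 6 or 9 d with 0 d and of 6 d with 3 d, and miR-214-3p lies between -0.05 and 0.28 in all 5.

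At 9 d vs. 0 d, 8 members were called, all higher, where 18.3% of all tested miRNAs were called and 10.4% called higher. The median was 1.58 over the members and 0.00 over all tested names. miR-143-3p had the largest called value (2.53 ± 0.31, SE; edgeR adjusted p = 4.09e-05), with miR-143-5p at 1.92 ± 0.23 (adjusted p = 4.09e-05), miR-145-5p at 1.61 ± 0.42 (adjusted p = 0.0120) and miR-145-3p at 1.61 ± 0.42 (adjusted p = 0.0122). With only the 6 libraries compared, both miR-145 calls were lost (adjusted p = 0.0629 and 0.0686). Without replicate 3 of 0 d both stayed called, at 1.17 for miR-145-5p and 1.16 for miR-145-3p. miR-199a-5p rose by 2.12 ± 0.36 (adjusted p = 0.000728) and miR-199b-5p by 1.76 ± 0.29 (adjusted p = 0.000646). By normalized signal, all libraries of 9 d lay above all of 0 d for the 8 called members and for miR-21-3p, the sha entry and miR-199a-3p. How many of all tested miRNAs separated in this way was not counted. miR-199a-3p, at 0.97 ± 0.19 (adjusted p = 0.00222), fell just short of the fold limit and passed it without replicate 3 of 0 d (1.18) or replicate 1 of 9 d (1.01). The sha entry of miR-199a-5p (2.44 ± 0.88, adjusted p = 0.0589) was called with DESeq2 (2.37), no filter (2.36), the replicate block (2.61) and without replicate 2 of 0 d (3.43). miR-214-3p, at 0.28 ± 0.19 (adjusted p = 0.302), was not called in any of the 5 comparisons. Without replicate 3 of 0 d it was at 0.47 (adjusted p = 0.0328), and miR-214-5p went from 0.73 (adjusted p = 0.0544) to 0.89 (adjusted p = 0.0218), both still under the fold limit.

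The other 2 calls at 9 d were close to the limits. miR-199c rose by 1.10 ± 0.20 (SE; edgeR adjusted p = 0.000963) and fell under the fold limit with DESeq2 (0.92), limma on the normalized signal (0.93), a filter at a sum of 120 (0.89), without replicate 1 of 0 d (0.96) and without replicate 3 of 9 d (0.99). miR-21-5p rose by 1.11 ± 0.34 (adjusted p = 0.0265), a call lost with DESeq2 (0.97), the filter at 120 (0.95), with only the 6 libraries compared (1.09, adjusted p = 0.0697), without replicate 3 of 0 d (0.78) and, through an adjusted p of 0.0562 to 0.0748, without any 1 of replicate 1 of 0 d and the 3 libraries of 9 d. miR-21-3p, not called at 9 d (1.58 ± 0.64, adjusted p = 0.0937), was called without replicate 2 of 0 d (2.44), without replicate 3 of 0 d (1.03), with the replicate block (1.76, adjusted p = 0.0494) and with no filter (1.49). Scaling by total reads in place of TMM lowered the median of all tested miRNAs at 9 d vs. 0 d by 0.20, to -0.20, and left 4 calls: miR-143 on both arms, miR-199a-5p and miR-199b-5p. Under that scaling miR-145-5p and miR-145-3p stayed over the fold limit with edgeR adjusted p of 0.0628 and 0.0649, miR-21-5p was at 0.71 and miR-199c at 0.74, and no member that was called changed its direction.

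The comparisons with 0 d share the 0 d libraries, so the step between 3 and 6 d was also taken by itself. At 6 d vs. 3 d, 4 members were called, all higher, where 3.98% of all tested miRNAs were called and 2.78% called higher. They were miR-143-3p (1.98 ± 0.30, SE; edgeR adjusted p = 0.00165), miR-143-5p (1.93 ± 0.23, adjusted p = 0.000205), miR-145-5p (1.99 ± 0.42, adjusted p = 0.0123) and miR-145-3p (2.28 ± 0.43, adjusted p = 0.00408). The call of miR-145-5p was lost, at log2 fold changes of 1.78 to 2.04, without replicate 2 or 3 of 3 d or replicate 2 of 6 d (adjusted p from 0.0566 to 0.0691). miR-199a-5p (0.65 ± 0.35, adjusted p = 0.380) and miR-21-5p (0.30 ± 0.33, adjusted p = 0.720) were not called. The median was 0.63 over the members and 0.08 over all tested names. Of the smooth muscle or pericyte markers, ACTA2 averaged 26.8 FPKM at 3 d and 1583 at 6 d, but 1697 at 0 d. ACTA2 made up most of their sum at 0, 6 and 9 d, but not at 3 d, where MYH11 was higher. TAGLN (224 FPKM at 0 d, 21.04 at 3 d and 448 at 6 d) and CNN1 (11.8, 1.03 and 47.5) were lower at 0 d than at 6 d. MYH11 was highest at 3 d (57.2 FPKM, against 23.3 at 0 d and 33.9 at 6 d). Any part of these cells or genes in the result was not tested.

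At 9 d vs. 6 d edgeR called no member, where 1.30% of all tested miRNAs were called, and 4 members had an unadjusted p under 0.05; DESeq2 and limma on the normalized signal called 0 as well. Those 4 were of the miR-199 group: miR-199b-5p (0.99 ± 0.29, SE; edgeR adjusted p = 0.103), miR-199a-5p (0.93 ± 0.35, adjusted p = 0.258), miR-199c (0.76 ± 0.19, adjusted p = 0.0595) and miR-199a-3p (0.56 ± 0.19, adjusted p = 0.192). In all 4, each library of 9 d was above each of 6 d. The same held for miR-143-3p and the sha entry of miR-199a-5p. For miR-145-3p (-0.42) and miR-21-3p (-0.42) each library of 9 d was below each of 6 d. miR-145-5p stood at -0.17 ± 0.41 and miR-143-3p at 0.42 ± 0.29. The median was 0.13 over the members and -0.10 over all tested names.

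Ratios of members within a library do not depend on how libraries are scaled. For 5 ratios chosen for shared hairpins, clusters or seeds, the log2 ratio of reads was compared between the 4 days with the F statistic, by exact permutation of the day labels in every possible split (one-sided, Benjamini-Hochberg over the 5 ratios; smallest possible p 6.49e-05). None passed an adjusted p of 0.05. The log2 ratio of miR-143-3p to miR-145-5p was -1.78 ± 0.50 at 0 d (SD, n = 3) and -1.04 ± 0.31 at 9 d (exact p = 0.205, adjusted p = 0.205), and the change of this ratio was not called.

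miR-214-3p and miR-199a-5p, whose hairpins lie 5679 bases apart on chromosome 16, were compared next. Their log2 ratio was 1.00, 0.42 and 3.10 at 0 d, 0.78, 0.74 and 1.51 at 3 d, 0.35, 0.43 and 0.07 at 6 d, then -0.70, -0.37 and -0.54 at 9 d. Every library of 9 d lay below every other library. Which of the miRNAs is the more abundant cannot be read from the sign, since a share per locus for miR-199a-5p would lower all these values by 1. The difference between 9 and 0 d was -2.04 (exact p = 0.0220, adjusted p = 0.0550), and -1.25 without replicate 3 of 0 d, where the exact test over the other 11 libraries, chosen after the values were seen, gave p = 0.00260 and adjusted p = 0.0130. miR-199a-5p also comes from the copy in DNM2, and the reads do not separate the copies.

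For miR-199a the arms were set against each other. The log2 ratio of the 5p to the 3p arm was 2.61, 2.86 and 0.30 at 0 d, 2.66, 2.56 and 2.01 at 3 d, 2.82, 3.08 and 2.84 at 6 d, then 3.46, 3.35 and 3.04 at 9 d. All 9 d libraries but replicate 3 lay above the highest library of 6 d. The difference between 9 and 0 d was 1.36 (exact p = 0.127, adjusted p = 0.159), but 0.55 without replicate 3 of 0 d (exact p = 0.00649 and adjusted p = 0.0162 over the other 11 libraries). The 3p arm is also placed at the hairpin of miR-199b, so the output of that hairpin enters the ratio. Its part in the difference was not tested.

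The other 2 ratios rested on replicate 3 of 0 d. The log2 ratio of miR-199a-5p to miR-199b-5p was 3.79 ± 0.48 at 0 d (SD, n = 3) and 4.29 ± 0.07 at 9 d (exact p = 0.0419, adjusted p = 0.0699), a difference of 0.49 that became 0.22 without that library (exact p = 0.209, adjusted p = 0.209). For the arms of miR-21, 5p over 3p, the difference was -1.81 (exact p = 0.0142, adjusted p = 0.0550) and -0.25 without it (exact p = 0.0575, adjusted p = 0.0891), since miR-21-3p was at 0 there and its ratio depends on the 0.5 reads added to each value. The log2 ratio of these arms lay between 8.80 and 10.2 in the other 11 libraries.

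**Figure D4:**
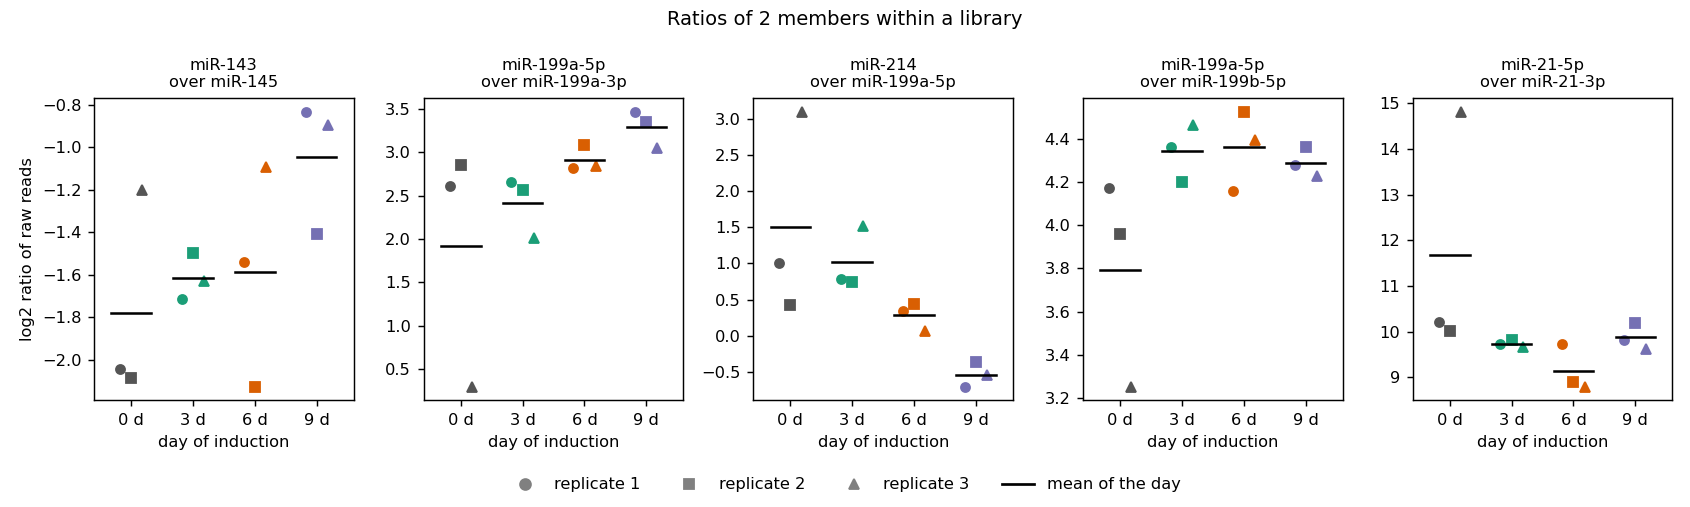
log2 ratios of raw reads of 2 members within each library (y axis, not starting at 0) by day of induction (x axis); symbols mark replicates and black lines the mean of the day. The ratio of miR-214 to miR-199a-5p goes from 1.51 at 0 d to -0.54 at 9 d on average, and replicate 3 of 0 d lies far from the other 0 d libraries in all 5 panels.

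Among the 342 other miRNAs with a mean normalized signal of at least 100, those most alike in pattern were found by Pearson correlation of log2 signals over the 12 libraries, as a description in which all pairs share libraries and depth. miR-145-5p was most like miR-155 (r = 0.94), miR-497 (0.94) and miR-455-3p (0.92), and miR-143-3p most like miR-185 (0.96), miR-379-3p (0.94) and miR-7862 (0.94). miR-199a-5p was most like miR-30d (0.98), miR-181a-3p (0.98) and miR-99a-5p (0.98), and miR-199b-5p most like miR-532 (0.95), miR-30d (0.95) and miR-181a-3p (0.93). miR-21-5p was most like miR-450a (0.96), miR-411a (0.95) and miR-494 (0.94). miR-199a-3p was most like miR-151-3p (0.95), miR-29a (0.94) and miR-493 (0.94). For miR-214-3p the highest values were lower: 0.86 with miR-4286, 0.75 with miR-6123 and 0.72 with miR-493-5p.

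The mRNAs around these miRNAs were read from lists of 58 genes: 5 host or neighbouring genes, 10 regulators, 10 biogenesis genes and reported targets in human or mouse cells. Of these, 56 were tested, MYOCD lay below the filter and CARMN was not listed. limma on log2(FPKM + 0.1) called 13 of the 56 at 3 d vs. 0 d (2 higher, 11 lower), where 23.3% of all 15402 tested mRNAs were called. It called 8 at 6 d vs. 0 d (2 higher, 6 lower; 11.4% of all), 5 at 9 d vs. 0 d (1 higher, 4 lower; 10.9% of all), 10 at 6 d vs. 3 d (7 higher, 3 lower; 19.1% of all) and 2 at 9 d vs. 6 d (2 higher; 4.43% of all). The share of the lists called was thus near that of all mRNAs in each comparison. The medians over the lists were -0.23, -0.32, -0.28, -0.02 and 0.09 in this order of comparisons, and -0.06, -0.15, -0.19, -0.09 and -0.04 over all tested mRNAs. In all, 19 genes were called at least once. log2 fold changes on this scale understate the change of genes with low FPKM.

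**Figure D5:**
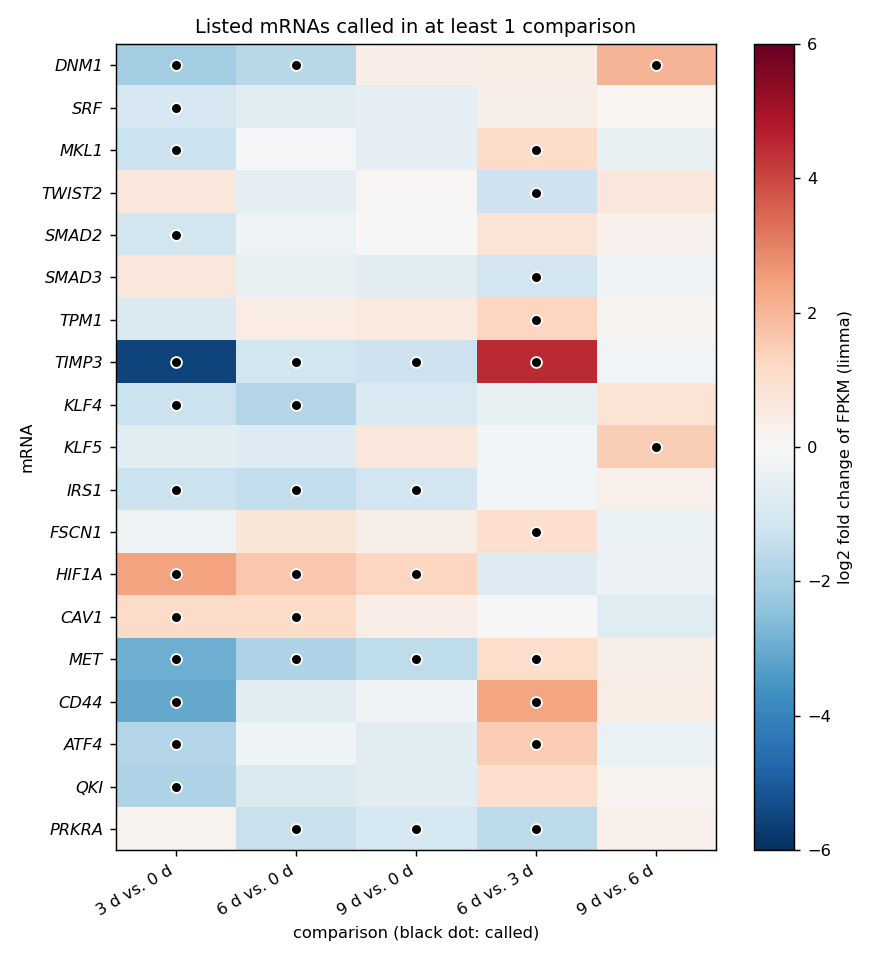
log2 fold change of FPKM (colour, limma) for the 19 listed mRNAs called in at least 1 comparison (y axis) across the 5 comparisons (x axis); dots mark calls. TIMP3 has the largest values (-5.55 at 3 d vs. 0 d and 4.46 at 6 d vs. 3 d), and HIF1A is higher at all 3 later days.

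Of the 4 host or neighbouring genes tested from the list (DNM1, DNM2, DNM3 and VMP1), DNM1, which overlaps the hairpin of miR-199b, was called. NUP88, around miR-199c, was not on the list. The FPKM of DNM1 were 30.03, 21.4 and 28.6 at 0 d, 7.13, 5.04 and 6.12 at 3 d, 9.22, 6.71 and 9.25 at 6 d, then 34.2, 36.8 and 34.0 at 9 d. DNM1 fell at 3 d (-2.11 ± 0.17, SE; limma adjusted p = 3.46e-06) and was still lower at 6 d than at 0 d (-1.66 ± 0.17, adjusted p = 4.67e-05). It rose between 6 and 9 d (2.06 ± 0.17, adjusted p = 2.86e-05), the interval in which miR-199b-5p stood at 0.99 and was not called; at 3 d miR-199b-5p was at 0.14. DNM3, around miR-214 and miR-199a, ranged between means of 19.7 and 32.8 FPKM and DNM2 between 6.23 and 10.7, with no call. VMP1, joined with MIR21 in the table, had means of 164 ± 5.43 (SD, n = 3), 255 ± 8.11, 245 ± 3.25 and 201 ± 6.65 FPKM at 0, 3, 6 and 9 d. The differences from 0 d (0.64, 0.58 and 0.29) had limma adjusted p values of 1.25e-06, 6.66e-06 and 0.000718 but were under the fold limit. The library type behind the FPKM is given as poly(A)-selected in the labels and as rRNA-depleted with strand in the methods, so reads of DNM genes and of their antisense miRNA transcripts may not be separated.

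Among the regulators, SRF, which drives miR-143 and miR-145 in smooth muscle, gave 9.89 ± 0.956 FPKM at 3 d (SD, n = 3) against 20.3 ± 2.03 at 0 d (-1.03 ± 0.18, SE; limma adjusted p = 0.000722). That call fell under the fold limit without replicate 3 of 0 d (-0.96) or replicate 1 of 3 d (-0.95), with a pseudocount of 1 (-0.97) and with FPKM rescaled by their median ratio (-0.95). MKL1, a partner of SRF, fell at 3 d (-1.27 ± 0.33, adjusted p = 0.00841) and rose between 3 and 6 d (1.17 ± 0.33, adjusted p = 0.0144; not called without replicate 2 of 3 d, at 1.03, or replicate 2 of 6 d, at 0.90). SMAD2, which carries TGF-β signals, fell at 3 d (-1.11 ± 0.06, adjusted p = 1.32e-07). Between 3 and 6 d TWIST2 fell (-1.27 ± 0.10, adjusted p = 2.79e-06), as did SMAD3 (-1.15 ± 0.34, adjusted p = 0.0177), whose call was lost without replicate 1 (-0.95) or 3 (-0.96) of 3 d and without replicate 1 (-0.99) or 2 (-0.98) of 6 d. It was also lost with a pseudocount of 1 (-0.93) and with only the 6 libraries compared (adjusted p = 0.0789). SMAD3 was called at 3 d vs. 0 d only without replicate 2 of 3 d (1.09). Of the 9 tested regulators limma thus called 3 at 3 d vs. 0 d (23.3% of all tested mRNAs) and 3 at 6 d vs. 3 d (19.1%). At 6 and 9 d vs. 0 d, when miR-143 and miR-145 were called, 0 of the 9 tested regulators was called by limma (5 and 1 at unadjusted p under 0.05), where 11.4 and 10.9% of all tested mRNAs were. MYOCD, left out by the filter, averaged 0.20 FPKM at 6 d against 0.01 at 0 d. With no filter it was called at 6 d vs. 0 d (1.41), 9 d vs. 0 d (1.18) and 6 d vs. 3 d (1.33), at levels where FPKM rest on few reads.

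The reported targets moved in both directions. Of 5 targets of miR-145, limma called 2, KLF4 and IRS1, both lower, at 3 and 6 d vs. 0 d, where 15.2 and 7.97% of all tested mRNAs were called lower. KLF4, a transcription factor that holds back smooth muscle genes, gave 25.95, 21.1 and 29.0 FPKM at 0 d, 9.62, 10.4 and 10.6 at 3 d, 6.75, 9.14 and 6.56 at 6 d, then 12.2, 13.9 and 13.6 at 9 d, and was called at 6 d vs. 0 d with -1.75 ± 0.15 (SE; limma adjusted p = 9.01e-06). At 3 d vs. 0 d it was at -1.29 ± 0.15 (adjusted p = 3.44e-05). At 9 d vs. 0 d KLF4 was called only without replicate 2 of 0 d (-1.05; -0.92 with all libraries). IRS1, an adaptor of the insulin receptor, was lower at all 3 later days (-1.17 ± 0.09 at 9 d, adjusted p = 5.81e-06), at 2.04 FPKM or less on average, and with a pseudocount of 1 its values (-0.72 to -0.86) stayed under the fold limit, as did that of 9 d with rescaled FPKM (-0.98). FSCN1 rose between 3 and 6 d (1.02 ± 0.09, adjusted p = 6.28e-06; 0.92 without replicate 1 of 3 d and 1.00 without replicate 2 of 6 d, under the limit). KLF5 rose between 6 and 9 d (1.46 ± 0.07, adjusted p = 1.10e-06). Of the 7 listed targets of miR-143, limma called 0 in each comparison (3, 2, 2, 1 and 0 at unadjusted p under 0.05), where 23.3, 11.4, 10.9, 19.1 and 4.43% of all tested mRNAs were called. With FPKM rescaled by their median ratio 1 of them was called at 9 d vs. 0 d (1.03). Leaving out replicate 3 of 0 d brought a call at 3 d vs. 0 d (-1.57), and leaving out replicate 3 of 9 d brought calls at 9 d vs. 0 d (1.48) and vs. 6 d (1.36).

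Of 7 listed targets of miR-199a, limma called 4, 3 and 2 at 3, 6 and 9 d vs. 0 d. It called 2 at 6 d vs. 3 d and 0 at 9 d vs. 6 d. Over all tested mRNAs the called shares were 23.3, 11.4, 10.9, 19.1 and 4.43% in this order. HIF1A, the oxygen-regulated transcription factor, had 80.1, 76.4 and 75.7 FPKM at 0 d, 412, 413 and 410 at 3 d, 222, 247 and 243 at 6 d, then 180, 186 and 192 at 9 d. It was higher than at 0 d on each later day (2.41 ± 0.05 at 3 d and 1.27 ± 0.05 at 9 d, SE; limma adjusted p = 2.51e-10 and 1.11e-07). CAV1, of the caveolae, rose at 3 d (1.16 ± 0.06, adjusted p = 1.68e-07) and 6 d vs. 0 d (1.13 ± 0.06). MET, the hepatocyte growth factor receptor, was lower on all 3 later days (-2.92 ± 0.11 at 3 d and -1.51 ± 0.11 at 9 d, adjusted p = 1.28e-08 and 5.01e-06). Between 3 and 6 d MET rose by 1.04 ± 0.11 (adjusted p = 3.24e-05), a call that fell under the fold limit without replicate 3 of 3 d (1.00) or of 6 d (0.96) and with a pseudocount of 1 (0.87). CD44, a hyaluronan receptor, fell at 3 d (-3.08 ± 0.08, adjusted p = 7.04e-10) and rose between 3 and 6 d (2.39 ± 0.08, adjusted p = 6.34e-09).

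Of 10 listed targets of miR-21, limma called 1 at each of 3, 6 and 9 d vs. 0 d. It called 2 at 6 d vs. 3 d and 0 at 9 d vs. 6 d. Over all tested mRNAs the called shares were 23.3, 11.4, 10.9, 19.1 and 4.43% in this order. TIMP3, an inhibitor of matrix proteases, gave 138, 105 and 137 FPKM at 0 d, 2.87, 2.48 and 2.41 at 3 d, 77.7, 29.2 and 89.2 at 6 d, then 59.2, 46.1 and 52.7 at 9 d. It fell at 3 d (-5.55 ± 0.35, SE; limma adjusted p = 4.49e-07), and its lower level at 9 d vs. 0 d (-1.26 ± 0.35, adjusted p = 0.0172) was not called without replicate 1 or 3 of 0 d or replicate 2 of 9 d (-1.17 to -1.20). At 6 d vs. 0 d (-1.10 ± 0.35, adjusted p = 0.0338) the call was lost without replicate 1 (-1.03) or 3 (-1.03) of 0 d or replicate 2 of 6 d (-0.59), with rescaled FPKM (-0.92) and with only the 6 libraries compared (adjusted p = 0.120). TPM1, a tropomyosin of the contractile filament, rose between 3 and 6 d (1.30 ± 0.15, adjusted p = 4.49e-05). TPM1 was called at 3 d vs. 0 d only without replicate 1 of 0 d (-1.01). Another listed target was called higher at 3 d vs. 0 d without replicate 2 of 0 d (1.06) or of 3 d (1.06), with a pseudocount of 0.01 (1.01) and with rescaled FPKM (1.01), and lower at 6 d vs. 3 d without replicate 2 of 3 d (-1.02). A further target was called lower at 6 d vs. 0 d without replicate 2 (-1.02) or 3 (-1.15) of 6 d. Of 6 listed targets of miR-214, limma called 2 at 3 d vs. 0 d (23.3% of all tested mRNAs) and 1 at 6 d vs. 3 d (19.1%). In the other comparisons it called 0. ATF4 fell at 3 d (-1.76 ± 0.08, adjusted p = 5.90e-08) and rose between 3 and 6 d (1.52 ± 0.08, adjusted p = 2.50e-07), and QKI fell at 3 d (-1.87 ± 0.47, adjusted p = 0.00688). Between 3 and 6 d QKI was called only without replicate 1 of 6 d (1.56).

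Of 10 genes that make and load miRNAs, limma called 1 at 6 d and at 9 d vs. 0 d, where 11.4 and 10.9% of all tested mRNAs were called, and 1 at 6 d vs. 3 d (19.1% of all). It was PRKRA, a partner of Dicer, each time. Another gene of this group was called at 3 d vs. 0 d without replicate 1 of 0 d (-1.19) and with a pseudocount of 0.01 (-1.04). A further gene was called without replicate 3 of 3 d (1.42 at 3 d vs. 0 d and -1.55 at 6 d vs. 3 d). PRKRA had 7.34, 5.68 and 6.31 FPKM at 0 d, 7.58, 7.02 and 7.99 at 3 d, 2.28, 2.13 and 3.05 at 6 d, then 3.24, 2.91 and 3.03 at 9 d. PRKRA fell between 3 and 6 d (-1.58 ± 0.14, SE; limma adjusted p = 7.84e-06) and was lower at 9 than at 0 d (-1.04 ± 0.14, adjusted p = 0.000262; -0.95 without replicate 1 of 0 d, -0.87 with a pseudocount of 1 and -0.84 with rescaled FPKM). The median log2 fold change of the 10 genes was -0.27 at 6 d and -0.39 at 9 d vs. 0 d, against -0.15 and -0.19 over all tested mRNAs.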

How the data were processed

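Small RNA and mRNA libraries of bovine intramuscular cells were compared over 0, 3, 6 and 9 d, with 3 libraries each. The authors identified miRNAs with ACGT101-miR against miRBase precursors. Per library they deposited raw reads, which are estimated counts because shared reads were split, and a normalized signal. This signal equals the raw value divided by 1 factor per library. The study's methods name TMM for normalizing, but whether TMM gave this factor is not stated in the sources used here. The authors deposited mRNA levels as FPKM. The submitters' processing notes list Bowtie 0.12.2, HISAT2 2.0, StringTie 1.3.0 and the build mm8, while the study's methods name the bovine assembly. miRNA names on several rows held the same values and were used once. Estimated counts were rounded, names with a sum under 10 left out, and tested with edgeR 4.0.16 (quasi-likelihood, TMM, 1 mean per day, all 12 libraries). FPKM with a mean of at least 0.1 were tested with limma 3.58.1 (trend) on log2(FPKM + 0.1). Adjustment was Benjamini-Hochberg over all tested features of a comparison. The fits were tested on simulated data. Python 3.11.15, R 4.3.3 and, as an alternative, DESeq2 1.42.0 were used. For each number and arm, the entry with the highest mean signal is given by library, besides any other called member; of the mRNAs, the called genes and host genes are named. Members and lists were chosen with earlier results of these data known. Alternatives were another tool, scaling, filter, pseudocount and set of libraries.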

Additional observations from a re-analysis of the deposited data

How the results depend on the processing

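With 3 libraries per day and 1438548 to 4673382 miRNA reads each, a call rests on the spread between few libraries, and smaller changes may be missed. Of 963 refits for 13 members, 888 kept direction and side of the limits, 33 lost and 16 gained a call, 26 moved a value that was not called across 0 or away from 0, and 0 reversed a call; for 22 named mRNAs these were 1482, 36, 4, 18 and 0 of 1540. Member calls moved from 5 to 2 (6 d vs. 0 d), from 8 to 5 (9 d vs. 0 d) and from 0 to 1 (9 d vs. 6 d) with only the 6 libraries compared, a fit on fewer samples that lost miR-145 on both arms at 6 and 9 d vs. 0 d, miR-199a-5p at 6 d and miR-21-5p at 9 d. They moved from 8 to 4 at 9 d vs. 0 d with total reads as library size, where all calls went from 112 higher and 86 lower to 67 and 144; at 9 d vs. 6 d they went from 7 and 7 to 1 and 23, and the median of all miRNAs shifted by -0.27. With DESeq2 the median at 6 d vs. 0 d shifted by -0.15, and the split of calls was 79 and 87 against 77 and 45. Listed mRNAs called at 9 d vs. 0 d moved from 5 to 3 with a pseudocount of 1. The causes were not tested.

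Leaving out each library gave 0 to 0, 4 to 8, 6 to 10, 3 to 4 and 0 to 0 called members at 3, 6 and 9 d vs. 0 d, 6 d vs. 3 d and 9 d vs. 6 d, and 12 to 15, 7 to 9, 3 to 6, 7 to 10 and 2 to 3 listed mRNAs. The differences in log2 ratio between 9 and 0 d ranged over 0.58 to 1.02 for miR-143 to miR-145, 0.55 to 1.83 for miR-199a-5p to 3p, -2.58 to -1.25 for miR-214 to miR-199a-5p, 0.22 to 0.68 for miR-199a-5p to miR-199b-5p and -2.64 to -0.25 for miR-21-5p to 3p. Without the third libraries of 0 and 3 d, chosen after seeing the data, these were 0.55, -1.25, 0.22 and -0.25 for the last 4, and 0, 5, 9, 4 and 0 members were called. The exact test without the third library of 0 d gained a call for miR-199a-5p to 3p (0.55) and miR-214 to miR-199a-5p (-1.25).

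With the replicate number as a replicate block, 0, 6, 10, 4 and 0 members and 13, 8, 5, 10 and 2 listed mRNAs were called. Same-numbered libraries deviated together with r from -0.11 to 0.31 for miRNAs, over 0.1 in 4 of 18 pairs, among them all 3 pairs of 0 and 6 d (0.137, 0.112 and 0.305), and 6 of 12 libraries were most alike to their own number. For libraries with different numbers r ranged from -0.24 to 0.21, over 0.1 in 5 of 36 pairs. Among these were pairs of 0 and 6 d (0.158 and 0.123). Whether the numbers pair the libraries cannot be told.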
